A study of Mus musculus with 29 samples.

Results

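The genes described here are 10 mouse genes for hematopoietic cytokine receptors, Kit, Csf2ra, Csf2rb, Il3ra, Il6ra, Il6st, Ifngr1, Il1r1, Tnfrsf1a and Tnfrsf1b, which were chosen by symbol from a table of 30025 genes. All 10 were in the table, and all 10 passed the filter on low values, which kept 15409 genes. RNA-seq libraries came from WT mice and from 5A3+/del mice, which carry a heterozygous germ line deletion on mouse chromosome 5 in the region that corresponds to human 7q22. The deletion was made in embryonic stem cells and is present in every cell of the animal, so that these libraries do not separate effects within blood cells from effects of the surroundings. All mice had the C57BL/6J strain in their labels, were untreated as far as the labels say, and were 12.42 to 13.28 (WT) or 12.42 to 13.85 (5A3+/del) weeks old. From each mouse, bone marrow cells that were c-kit+, Sca-1+ and negative for lineage markers, CD41 and CD48 were sorted by CD150 into CD150hi HSC, CD150lo HSC and CD150neg MPP. The 29 libraries form 6 groups of 5, apart from the 5A3+/del CD150neg MPP group, which has 4. The questions are how the receptor genes differ between the 3 populations and between the genotypes.

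Cytokine receptors carry signals from secreted proteins into stem and progenitor cells. KIT, the receptor for stem cell factor, is a receptor tyrosine kinase on which HSC depend. GM-CSF and IL-3 bind their own alpha chains (Csf2ra and Il3ra) and signal through a shared beta chain (Csf2rb), and the mouse has a related beta chain, Csf2rb2, that serves IL-3 only. IL-6 binds Il6ra, which then pairs with the shared signal transducer gp130 (Il6st), and both receptor families, like the interferon-gamma receptor (Ifngr1), use JAK kinases and STAT factors. Il1r1 encodes the signalling receptor for IL-1, which acts through MyD88 and IRAK kinases, and Tnfrsf1a and Tnfrsf1b encode the receptors for TNF.

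Between 21229494 and 38797567 fragments per library lay behind the values, with a median of 26967107, as read from the steps of the low FPKM values (fragments scaled to exon length and to the mapped total of the library). The labels were checked on Mll5, a gene in the deleted interval, which was at 37.3 to 58.1 FPKM in WT and at 19.9 to 32.4 FPKM in 5A3+/del libraries with no overlap. Slamf1, which encodes CD150, was at 9.97 to 22.6 FPKM in CD150hi HSC, at 0.1795 to 2.64 FPKM in CD150lo HSC and at most 0.296 FPKM in CD150neg MPP. WT mouse 3 stood apart, with Xist at 234 to 319 FPKM in its 3 libraries against at most 0.470 FPKM in all others, and the Y-linked Ddx3y at most 0.0687 FPKM against at least 11.4 FPKM. Xist is transcribed in female cells, and the labels give no sex, so that a mouse of the other sex and a mislabelled one cannot be told apart here. Its receptor values lay within the range of the other 4 WT mice in 20 of 30 cases and outside it in 10. Some mouse must be highest and some mouse lowest in each group, so this count does not show whether mouse 3 differed. The number of members called without mouse 3 was the same as with it in each of the 12 comparisons. Fewer cells that carry a transcript and less transcript per cell cannot be told apart in such sorted bulk samples.

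Kit was the most abundant of the 10 transcripts in every group. Its mean over the 29 libraries was 156 FPKM, above 98.6% of the genes that passed the filter. The protein was also a sort marker of all 3 populations, so that its presence is part of how the cells were chosen. The remaining means were 27.98 FPKM for Ifngr1, 24.4 for Tnfrsf1a, 20.6 for Csf2ra, 19.0 for Tnfrsf1b, 14.8 for Il6st, 14.2 for Csf2rb, 11.9 for Il1r1, 10.3 for Il6ra and 3.42 for Il3ra. Between genes, FPKM is corrected for exon length only, so that the order of these levels is approximate. In each of the 6 groups the lowest Kit library exceeded the highest library of the gene next in rank, whereas most other neighbours in the order overlapped. Il3ra had the thinnest support, with 25 to 435 fragments per library, against 16229 to 35912 for Kit. The order changed most at Il1r1, which had the lowest mean in CD150hi HSC of both genotypes and the fourth highest in CD150neg MPP of both.

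**Figure D1:**
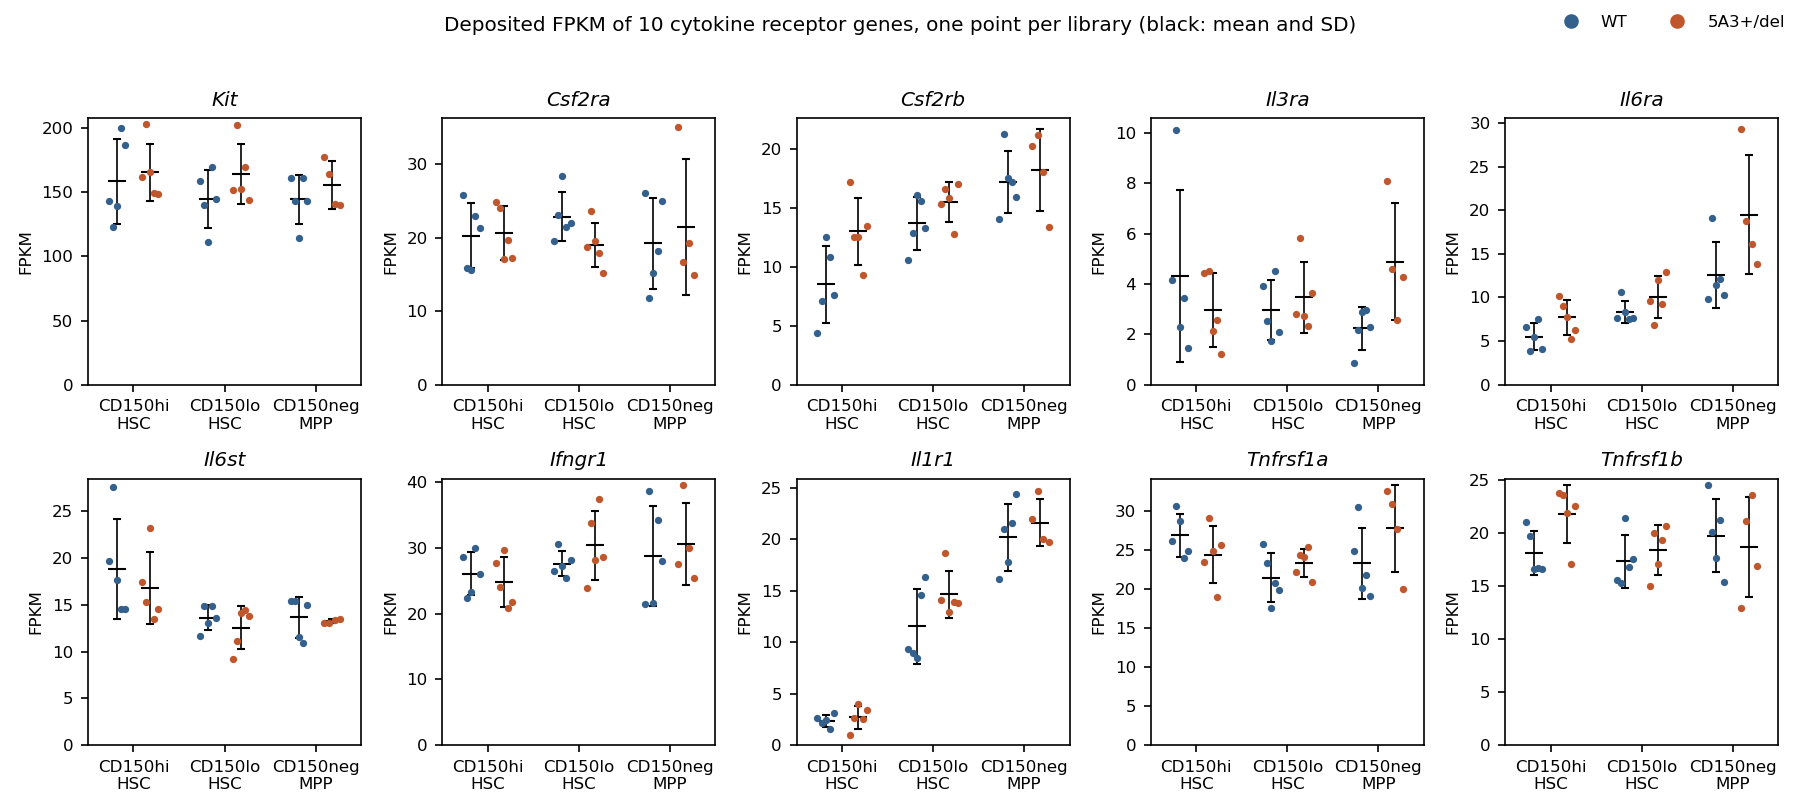
Deposited FPKM of the 10 receptor genes (vertical axes, linear, each from 0) in CD150hi HSC, CD150lo HSC and CD150neg MPP (horizontal axis). Each point is 1 library, blue for WT and orange for 5A3+/del, and black marks give the mean and SD of 4 or 5 libraries. Il1r1 rises from 0.996 to 4.01 FPKM in CD150hi HSC to 16.2 to 24.7 FPKM in CD150neg MPP, while Kit stays between 111 and 203 FPKM.

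Of the 10 genes, Il1r1 showed the largest difference between populations. The gene (ENSMUSG00000026072) spans chr1:40281925-40373043 on the plus strand of mm9, the build of the deposited data. In WT CD150hi HSC it was at 2.64, 2.10, 2.43, 1.59 and 3.15 FPKM in mice 1 to 5, in WT CD150lo HSC at 9.34, 8.99, 8.47, 14.6 and 16.4 FPKM and in WT CD150neg MPP at 16.2, 21.0, 17.9, 21.6 and 24.4 FPKM. In 5A3+/del CD150hi HSC it was at 0.996, 2.59, 4.01, 2.57 and 3.37 FPKM, in 5A3+/del CD150lo HSC at 14.1, 18.7, 13.0, 13.9 and 13.8 FPKM and in 5A3+/del CD150neg MPP at 21.99, 24.7, 20.0 and 19.7 FPKM. All CD150hi HSC libraries lay below all others in both genotypes. CD150lo HSC and CD150neg MPP overlapped narrowly in WT, at 16.2 to 16.4 FPKM, and did not overlap in 5A3+/del. Within a mouse, the level rose at each step in every mouse sampled, by 3.24 to 14.1 times from CD150hi HSC to CD150lo HSC and by 1.32 to 2.33 times from CD150lo HSC to CD150neg MPP.

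The Il1r1 means were 2.38 ± 0.59 FPKM in WT CD150hi HSC, 11.6 ± 3.66 in WT CD150lo HSC and 20.2 ± 3.25 in WT CD150neg MPP (SD, n = 5 each). In 5A3+/del they were 2.70 ± 1.13 (SD, n = 5), 14.7 ± 2.28 (SD, n = 5) and 21.6 ± 2.30 FPKM (SD, n = 4). On the log2(FPKM + 1) scale, Il1r1 was higher in CD150neg MPP than in CD150hi HSC by 2.62 (SE 0.19, adjusted p = 8.36e-11 by limma) in WT and by 2.59 (SE 0.20, adjusted p = 5.34e-10 by limma) in 5A3+/del. The step from CD150hi HSC to CD150lo HSC was 1.90 (SE 0.19, adjusted p = 9.94e-08 by limma) in WT and 2.10 (SE 0.19, adjusted p = 1.93e-08 by limma) in 5A3+/del. From CD150lo HSC to CD150neg MPP the difference was 0.72 (SE 0.19) in WT and 0.49 (SE 0.20) in 5A3+/del, and neither passed the threshold of 0.05 after adjustment over all genes (limma adjusted p = 0.108 and 0.874).

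The 250 bases before the transcription start are shown for the genes whose level rose between populations in both genotypes, Il1r1 and Il6ra. They were taken from RefSeq (table build GRCm38.p6), which matched 9 of the 10 receptor genes, all but Csf2rb, as well as Csf2rb2, and each stretch was placed on mm9 by its single exact match. RefSeq gave 2 starts for Il1r1. The first coincides with the annotated start of the gene, and the second lies 41506 bases further into it. Capitals mark, on either strand, GAGGAA, which holds the core of PU.1 and other ETS factor sites, or GATAAG, which is known from sites of the GATA family. TGTGGT (RUNX) and TTCNNNGAA (STAT) were searched as well and were in none of the 3 stretches.
Il1r1 first start, chr1:40281675-40281924, mm9, plus strand: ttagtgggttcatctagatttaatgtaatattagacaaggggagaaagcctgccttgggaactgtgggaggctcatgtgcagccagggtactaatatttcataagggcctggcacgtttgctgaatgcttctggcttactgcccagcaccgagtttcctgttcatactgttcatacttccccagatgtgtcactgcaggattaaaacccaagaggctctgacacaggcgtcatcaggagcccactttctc
Il1r1 second start, chr1:40323181-40323430, mm9, plus strand: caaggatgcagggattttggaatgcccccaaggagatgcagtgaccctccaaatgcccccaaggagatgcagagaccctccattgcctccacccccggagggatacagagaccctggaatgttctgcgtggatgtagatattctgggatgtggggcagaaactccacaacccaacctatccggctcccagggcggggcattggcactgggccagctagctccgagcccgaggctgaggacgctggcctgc
Il6ra, chr3:89717119-89717368, mm9, minus strand: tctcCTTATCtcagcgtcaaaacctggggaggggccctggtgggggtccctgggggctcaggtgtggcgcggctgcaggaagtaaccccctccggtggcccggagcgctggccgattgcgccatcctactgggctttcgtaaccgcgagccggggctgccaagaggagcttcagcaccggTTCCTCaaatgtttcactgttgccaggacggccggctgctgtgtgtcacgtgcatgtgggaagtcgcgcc
Neither Il1r1 stretch held any of the 4 motifs, and the Il6ra stretch held 1 GATAAG and 1 GAGGAA, both on the opposite strand. Of 32851 RefSeq promoters of this length, 23.3% held GAGGAA, 6.55% GATAAG, 14.0% TGTGGT and 7.02% TTCNNNGAA. The stretch before the first Il1r1 start contained 3 CpG, the one before the second start 7 and the Il6ra stretch 18, and the median over all promoters was 6. A match or its absence describes these letters only.

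Il6ra, the ligand-binding chain for IL-6, also rose towards CD150neg MPP. It (ENSMUSG00000027947) spans chr3:89673246-89717084 on the minus strand of mm9. In WT CD150hi HSC its values were 6.62, 3.85, 5.51, 7.51 and 4.14 FPKM in mice 1 to 5, in WT CD150lo HSC 7.64, 10.6, 8.38, 7.58 and 7.69 FPKM and in WT CD150neg MPP 9.78, 19.1, 11.5, 12.1 and 10.3 FPKM. In 5A3+/del CD150hi HSC they were 10.2, 9.04, 7.79, 5.26 and 6.28 FPKM, in 5A3+/del CD150lo HSC 9.55, 6.81, 12.0, 9.26 and 12.9 FPKM and in 5A3+/del CD150neg MPP 29.3, 18.7, 16.2 and 13.8 FPKM. The CD150neg MPP libraries lay above all CD150hi HSC libraries of the same genotype, and 5A3+/del mouse 1 gave the highest value of all. Il6ra was higher in CD150neg MPP than in CD150hi HSC by 1.01 (SE 0.20, adjusted p = 0.00113 by limma) in WT and by 1.18 (SE 0.21, adjusted p = 0.000461 by limma) in 5A3+/del on the log2(FPKM + 1) scale. The ratio of the mean FPKM was 2.27 in WT and 2.53 in 5A3+/del, and the level rose in 5 of 5 and 4 of 4 mice. In the paired fit with the mouse as a replicate block and only these groups, the WT difference was unchanged at 1.01 but did not pass (limma adjusted p = 0.0644), while the 5A3+/del difference passed (limma adjusted p = 0.0389). The intermediate steps did not pass in either genotype. They were 0.57 (SE 0.20) and 0.44 (SE 0.20) in WT and 0.36 (SE 0.20) and 0.82 (SE 0.21) in 5A3+/del, with limma adjusted p from 0.144 to 0.523.

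Il6st, which encodes gp130, ran the other way by its means. It (chr13:113265216-113297068, plus strand, mm9) was at 18.8 ± 5.36 FPKM in WT CD150hi HSC, 13.6 ± 1.38 in WT CD150lo HSC and 13.7 ± 2.22 in WT CD150neg MPP (SD, n = 5 each). In 5A3+/del the means were 16.8 ± 3.88 (SD, n = 5), 12.5 ± 2.31 (SD, n = 5) and 13.2 ± 0.21 FPKM (SD, n = 4). The groups overlapped in every comparison. CD150neg MPP differed from CD150hi HSC by -0.45 (SE 0.15, adjusted p = 0.0626 by limma) in WT and by -0.33 (SE 0.16, adjusted p = 0.292 by limma) in 5A3+/del, so that neither passed. The WT difference did pass without WT mouse 5, at -0.57 (limma adjusted p = 0.0471), with a stricter filter (adjusted p = 0.0489) and with the mouse as a random effect (adjusted p = 0.0447).

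The ratio of Il6ra to Il6st within a library combined both trends. In WT it was 0.139 to 0.514 in CD150hi HSC, 0.509 to 0.7097 in CD150lo HSC and 0.635 to 1.24 in CD150neg MPP. In 5A3+/del it was 0.335 to 0.590 in CD150hi HSC, 0.614 to 1.04 in CD150lo HSC and 1.03 to 2.24 in CD150neg MPP. CD150hi HSC and CD150neg MPP did not overlap in either genotype. The median rose from 0.312 to 0.989 in WT and from 0.431 to 1.32 in 5A3+/del.

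Csf2rb, the beta chain shared by GM-CSF, IL-3 and IL-5 receptors, rose in WT. It (ENSMUSG00000071713) spans chr15:78156420-78184277 on the plus strand of mm9. In WT CD150hi HSC it was at 4.34, 7.12, 12.5, 10.9 and 7.61 FPKM in mice 1 to 5, in WT CD150lo HSC at 10.5, 12.9, 16.1, 15.6 and 13.3 FPKM and in WT CD150neg MPP at 14.1, 21.2, 17.5, 17.1 and 15.9 FPKM. In 5A3+/del CD150hi HSC it was at 17.1, 12.5, 12.5, 9.27 and 13.5 FPKM, in 5A3+/del CD150lo HSC at 15.3, 16.6, 15.8, 12.7 and 17.0 FPKM and in 5A3+/del CD150neg MPP at 20.2, 21.2, 18.0 and 13.3 FPKM. WT CD150hi HSC held the 3 lowest libraries of all 29, and the WT CD150neg MPP libraries lay above all of WT CD150hi HSC, whereas the 5A3+/del groups overlapped. The WT difference of CD150neg MPP from CD150hi HSC was 0.96 (SE 0.18, adjusted p = 0.000756 by limma) on the log2(FPKM + 1) scale, with a ratio of mean FPKM of 2.02 and a rise in 5 of 5 mice. In 5A3+/del it was 0.43 (SE 0.20, adjusted p = 0.243 by limma), with a rise in 4 of 4 mice. These differences were not shown to differ from each other (difference 0.53, 95% confidence interval -0.022 to 1.08, limma adjusted p = 0.638).

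CD150lo HSC exceeded CD150hi HSC in Csf2rb by 0.71 (SE 0.18, adjusted p = 0.0253 by limma) in WT and by 0.27 (SE 0.18, adjusted p = 0.584 by limma) in 5A3+/del. The WT call was lost in the paired fit with the mouse as a replicate block (limma adjusted p = 0.0827), in the fit of these groups alone (adjusted p = 0.189), without WT mouse 2 (adjusted p = 0.0943) and without WT mouse 5 (adjusted p = 0.116). Granulocyte and monocyte transcripts varied alongside it, in different directions. S100a8, an abundant neutrophil transcript, was at 478 FPKM in the WT CD150hi HSC library of mouse 1, which had the lowest Csf2rb, and at 16.8 FPKM in that of mouse 3, which had the highest Csf2rb of the group. The summed level of the 10 granulocyte and monocyte markers, of which 9 passed the filter, was 276 to 967 FPKM in WT CD150hi HSC, 221 to 1541 in WT CD150lo HSC and 259 to 291 in WT CD150neg MPP. In 5A3+/del these sums were 229 to 344, 243 to 579 and 224 to 518 FPKM. The neutrophil gene Ly6g had a median of 0 FPKM in every group. Ly6g reached 9.31 FPKM in WT CD150hi HSC, where 3 libraries were at 0, and at most 0.562 FPKM in any other group. Itgam and Mpo, also on the list, had higher medians towards CD150neg MPP, as Csf2rb did. Itgam, which encodes CD11b, had medians of 1.38, 4.64 and 9.14 FPKM in WT and 3.38, 8.53 and 12.2 FPKM in 5A3+/del CD150hi HSC, CD150lo HSC and CD150neg MPP. Mpo, the myeloperoxidase gene, had medians of 0.172, 2.53 and 4.11 FPKM in WT and 0.066, 2.84 and 3.98 FPKM in 5A3+/del. Not all of the list shared this order. Lyz2 had medians of 175, 178 and 160 FPKM in WT and 191, 216 and 185 FPKM in 5A3+/del. For Prtn3 they were 32.2, 33.4 and 31.2 FPKM in WT and 31.5, 37.8 and 40.3 FPKM in 5A3+/del. For Elane they were 0.160, 0.950 and 1.38 FPKM in WT and 0.0963, 6.09 and 1.37 FPKM in 5A3+/del. The part of these transcripts in the receptor values was not tested beyond the covariate that follows. With the S100a8 and S100a9 level as a covariate, an alternative added after these values were seen, Csf2rb in WT CD150neg MPP remained above WT CD150hi HSC by 0.74 (SE 0.18, adjusted p = 0.00898 by limma). Both covariate genes had lower WT medians in CD150neg MPP than in CD150hi HSC, unlike Itgam and Mpo. The part of Itgam, Mpo and the other markers was therefore not tested by this fit.

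The paralog Csf2rb2 (chr15:78112947-78136052, minus strand, mm9) lies next to Csf2rb and resembles it, so that reads could have been split between them in the counting. Its means were 8.59 ± 1.20 FPKM in WT CD150hi HSC, 6.30 ± 1.32 in WT CD150lo HSC and 6.71 ± 1.43 in WT CD150neg MPP (SD, n = 5 each). In 5A3+/del they were 11.6 ± 4.07 (SD, n = 5), 7.67 ± 1.41 (SD, n = 5) and 7.02 ± 1.77 FPKM (SD, n = 4). Unlike Csf2rb, Csf2rb2 was lower in 5A3+/del CD150neg MPP than in 5A3+/del CD150hi HSC, by -0.65 (SE 0.19, adjusted p = 0.0339 by limma), and the WT difference of -0.36 (SE 0.18, adjusted p = 0.23 by limma) did not pass. Leaving out any 1 of the 5A3+/del mice ended this call (limma adjusted p = 0.0515 to 0.125), as did the paired fit with the mouse as a replicate block (adjusted p = 0.16), the fit of these groups alone (0.202), no normalization (0.0639), no filter (0.0527) and the S100a8 and S100a9 covariate (0.0574). The ratio of Csf2rb to Csf2rb2 within a library was 0.469 to 1.36 in WT CD150hi HSC, 1.51 to 3.05 in WT CD150lo HSC and 2.02 to 3.45 in WT CD150neg MPP. In 5A3+/del it was 0.943 to 1.32, 1.53 to 2.55 and 2.28 to 3.01. CD150hi HSC did not overlap with either other population in this ratio, in both genotypes. Csf2rb over Csf2ra, Tnfrsf1a over Tnfrsf1b and Il3ra over Csf2ra were computed as well. In these ratios CD150hi HSC overlapped with both other populations in both genotypes. Csf2rb over Csf2ra, for instance, was 0.168 to 0.803 in WT CD150hi HSC and 0.538 to 1.80 in WT CD150neg MPP. The share of all gene pairs without overlap was not computed.

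**Figure D2:**
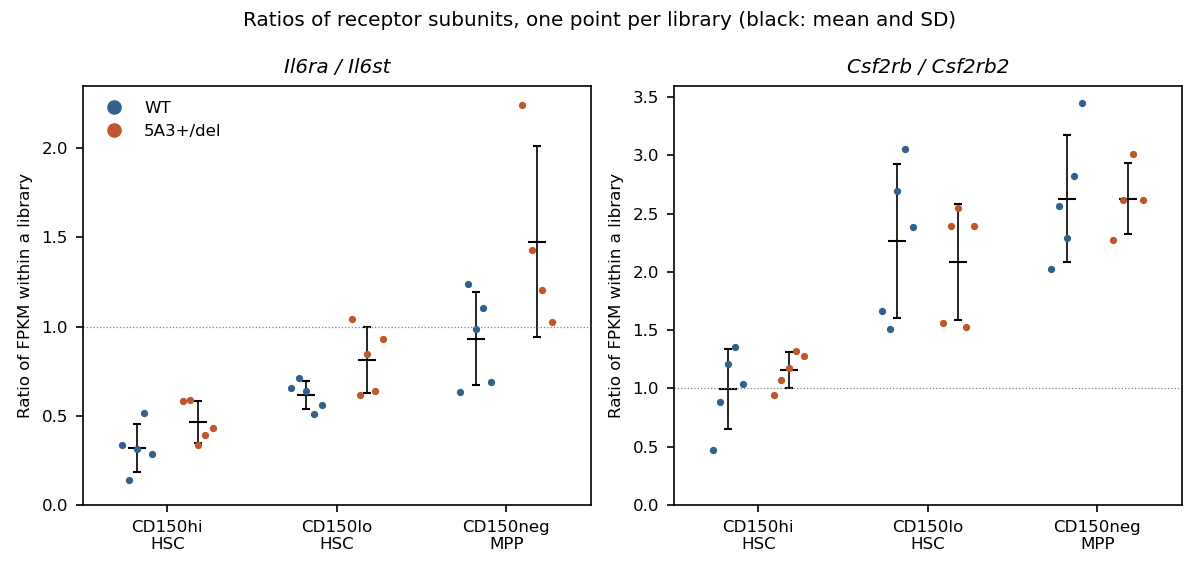
Ratios of FPKM within a library (vertical axes, linear, from 0) for Il6ra over Il6st (left) and Csf2rb over Csf2rb2 (right) in the 3 populations (horizontal axes). Each point is 1 library, blue for WT and orange for 5A3+/del, black marks give the mean and SD, and the dotted line marks a ratio of 1. Both ratios are lowest in CD150hi HSC, where they stay at or under 0.590 and 1.36.

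Of the alpha chains that signal through Csf2rb, neither Csf2ra nor Il3ra passed the test in any comparison. Whether these alpha chains and Csf2rb differed in their change was not tested. Csf2ra, the GM-CSF alpha chain (chr19:61300305-61304321, minus strand, mm9), had group means from 19.0 to 22.9 FPKM and overlapped between all groups. Il3ra, the IL-3 alpha chain (chr14:15179009-15188004, plus strand, mm9), was the least abundant, with group means from 2.24 to 4.89 FPKM. Between CD150hi HSC and CD150neg MPP its difference was -0.53 (95% confidence interval -1.22 to 0.17) in WT and 0.55 (95% confidence interval -0.18 to 1.29) in 5A3+/del on the log2(FPKM + 1) scale. These intervals are the widest of the 10 genes.

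Kit (chr5:75970941-76052747, plus strand, mm9), the stem cell factor receptor, varied little between populations. Its group means were 145 to 159 FPKM in WT and 156 to 166 FPKM in 5A3+/del, and CD150neg MPP differed from CD150hi HSC by -0.070 (95% confidence interval -0.36 to 0.22) in WT and by -0.14 (95% confidence interval -0.44 to 0.17) in 5A3+/del. Ifngr1, the ligand-binding chain of the interferon-gamma receptor (chr10:19311755-19330035, plus strand, mm9), had group means of 24.8 to 30.7 FPKM. Tnfrsf1a, the death domain receptor for TNF (chr6:125299380-125312502, plus strand, mm9), had means of 21.4 to 27.7 FPKM. Tnfrsf1b, the TNF receptor without a death domain (chr4:144803366-144836773, minus strand, mm9), had means of 17.3 to 21.8 FPKM. None of these 4 genes passed in any comparison, and their groups overlapped in each. Tnfrsf1a came nearest, with a difference of -0.32 (SE 0.12, adjusted p = 0.207 by limma) between WT CD150lo HSC and WT CD150hi HSC.

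Counted over the 10 genes, 3 were higher and none lower in WT CD150neg MPP than in WT CD150hi HSC (Il1r1, Il6ra and Csf2rb), where 10.0% of all 15409 tested genes passed in either direction. The groups of 3 members did not overlap in FPKM, against 8.44% of all tested genes. In 5A3+/del, 2 were higher (Il1r1 and Il6ra) and 2 did not overlap, against 6.16% of all genes called and 7.42% without overlap. CD150lo HSC exceeded CD150hi HSC in 2 members in WT (Il1r1 and Csf2rb) with 3.53% of all genes called, and in 1 member in 5A3+/del (Il1r1) with 3.18% called. Groups did not overlap in that step for 2 members in WT, Il1r1 and Il6ra (3.83% of all genes), and for Il1r1 alone, 1 member, in 5A3+/del (4.10%). No member passed between CD150lo HSC and CD150neg MPP, with limma in WT (0.188% of all genes called, 2 members with an unadjusted p under 0.05) or in 5A3+/del (0.0389% called, 2 members with an unadjusted p under 0.05). In this last step no member was without overlap in WT (2.05% of all genes) and 2 were in 5A3+/del (1.95%), Il1r1 and Il6ra. The median log2 difference of the 10 members between CD150neg MPP and CD150hi HSC was -0.0083 in WT and 0.18 in 5A3+/del on the log2(FPKM + 1) scale, beside 0.0070 and 0.0039 over all tested genes. Comparisons that share a population share its libraries.

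**Figure D3:**
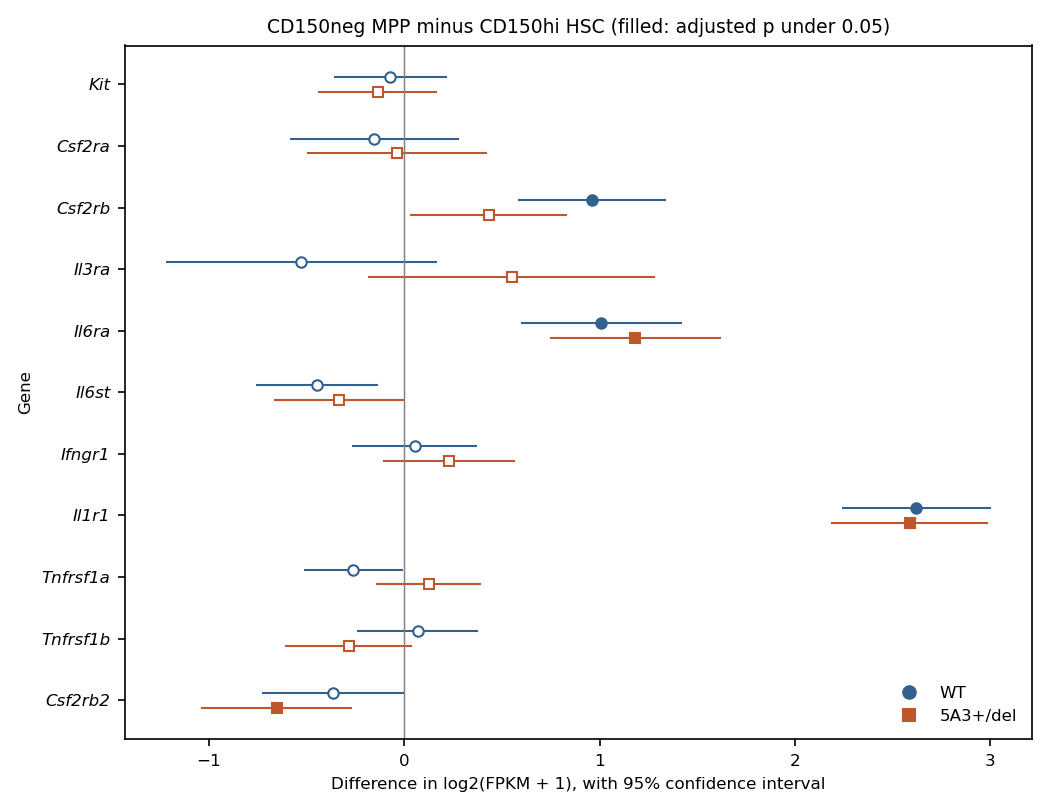
Difference between CD150neg MPP and CD150hi HSC in log2(FPKM + 1) (horizontal axis) for the 10 receptor genes and Csf2rb2 (vertical axis). Symbols give the limma estimate, lines the 95% confidence interval, circles are WT, squares are 5A3+/del, and filled symbols have an adjusted p under 0.05. Il1r1 lies furthest right, at 2.62 in WT and 2.59 in 5A3+/del, followed by Il6ra at 1.01 and 1.18.

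The T and NK cell markers did not move together beside these rises. The summed level of the 8 T and NK cell markers, 7 of them in the table and 3 past the filter, was 6.25 to 15.6 FPKM in WT CD150hi HSC, 15.2 to 26.4 in WT CD150lo HSC and 21.3 to 49.2 in WT CD150neg MPP. In 5A3+/del these sums were 4.86 to 20.3, 20.2 to 43.7 and 34.1 to 57.2 FPKM. The rise in the sum was mainly that of Nkg7, a cytotoxic granule gene, with WT medians of 8.37, 18.5 and 33.1 FPKM and 5A3+/del medians of 9.25, 31.2 and 44.4 FPKM in the same order. Klrb1c, which encodes the NK cell receptor NK1.1, ran the other way, with medians of 2.73 FPKM in CD150hi HSC and 0.307 in CD150neg MPP in WT and of 2.504 and 0.413 FPKM in 5A3+/del. Among the T cell genes, Cd3e, Cd3g and Cd8a had medians of 0 over the 29 libraries. Their maxima were 1.06, 0.104 and 0.0764 FPKM. Cd4, which passed the filter, had medians of 1.39, 1.17 and 2.14 FPKM in WT CD150hi HSC, CD150lo HSC and CD150neg MPP. In 5A3+/del its medians were 0.4845, 1.08 and 2.98 FPKM in the same order. Cd3d, which did not pass, had medians of 0.0551, 0.364 and 0.547 FPKM in WT and 0.0733, 0.123 and 0.129 FPKM in 5A3+/del. The part of such cells in the receptor values was not tested. The 7 mast cell and basophil markers were of interest because mast cells carry much Kit. Their summed level was at most 4.74 FPKM in any library, and Mcpt8, Fcer1a and Ms4a2 had medians of 0. Cpa3, the only gene of this list past the filter, was at 0.0223 to 4.66 FPKM, with a median of 1.23 FPKM.

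No receptor gene passed between genotypes in any population. In CD150hi HSC, 0 of 10 passed by limma, where 0.156% of all genes were called, and 2 had an unadjusted p under 0.05. In CD150lo HSC, 0 of 10 passed against 0.0324% of all genes, with 1 member at an unadjusted p under 0.05, and in CD150neg MPP 0 of 10 against 0.0454%, with 2 members. The groups overlapped for all 10 members in each population, while 2.37%, 1.49% and 1.49% of all genes did not overlap. The members' log2 differences of 5A3+/del minus WT ran from -0.27 to 0.61 in CD150hi HSC, from -0.25 to 0.34 in CD150lo HSC and from -0.096 to 0.81 in CD150neg MPP, with medians of 0.086, 0.15 and 0.11. The 95% confidence intervals reached 0.25 to 0.73 to either side of these estimates, with 4 or 5 mice per group. Differences beyond their own interval width also missed the threshold after adjustment over all genes. That of Csf2rb in CD150hi HSC, for instance, was 0.61 (95% confidence interval 0.23 to 0.99). A p that misses the threshold does not show that the genotypes were alike.

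The largest genotype difference in CD150hi HSC was in Csf2rb, with means of 13.0 ± 2.81 FPKM in 5A3+/del and 8.49 ± 3.23 FPKM in WT (SD, n = 5 each). The values overlapped between 9.27 and 12.5 FPKM, and the difference of 0.61 (SE 0.18, unadjusted p = 0.00268, adjusted p = 0.145, both by limma) did not pass. It was 0.74 (limma adjusted p = 0.0808) without WT mouse 3 and 0.31 (limma adjusted p = 0.626) with the S100a8 and S100a9 covariate added after seeing the data. The median S100a8 level was 146 FPKM in WT and 8.17 FPKM in 5A3+/del CD150hi HSC. The difference in Csf2rb was 0.17 in CD150lo HSC and 0.081 in CD150neg MPP.

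Il6ra had a higher mean in 5A3+/del in all 3 populations. The means were 7.71 ± 1.99 against 5.53 ± 1.57 FPKM in CD150hi HSC and 10.1 ± 2.41 against 8.37 ± 1.28 FPKM in CD150lo HSC (SD, n = 5 each). In CD150neg MPP they were 19.5 ± 6.81 (SD, n = 4) against 12.6 ± 3.78 FPKM (SD, n = 5). The log2 differences were 0.42 (SE 0.20), 0.21 (SE 0.20) and 0.59 (SE 0.21), with limma adjusted p of 0.375, 0.945 and 1.00, so none passed. The values of the genotypes overlapped in each population. With the S100a8 and S100a9 covariate, added after seeing the data, the Il6ra difference was 0.23 in CD150hi HSC and 0.61 in CD150neg MPP. Without WT mouse 3 it was 0.40 and 0.59.

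Il3ra in CD150neg MPP was at 8.11, 4.58, 2.57 and 4.29 FPKM in 5A3+/del mice 1 to 4 and at 0.845, 2.18, 2.90, 2.97 and 2.28 FPKM in WT mice 1 to 5. Of the 5A3+/del libraries, 1 lay inside the WT range and 3 above it, and the difference of 0.81 (SE 0.36, unadjusted p = 0.0326 by limma) did not pass after adjustment. Kit in CD150lo HSC was at 152, 203, 152, 170 and 144 FPKM in 5A3+/del and at 159, 140, 111, 170 and 145 FPKM in WT. The groups overlapped widely, and the difference of 0.32 (SE 0.14, limma adjusted p = 0.663) fell to 0.23 without WT mouse 3, which had the lowest value.

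**Figure D4:**
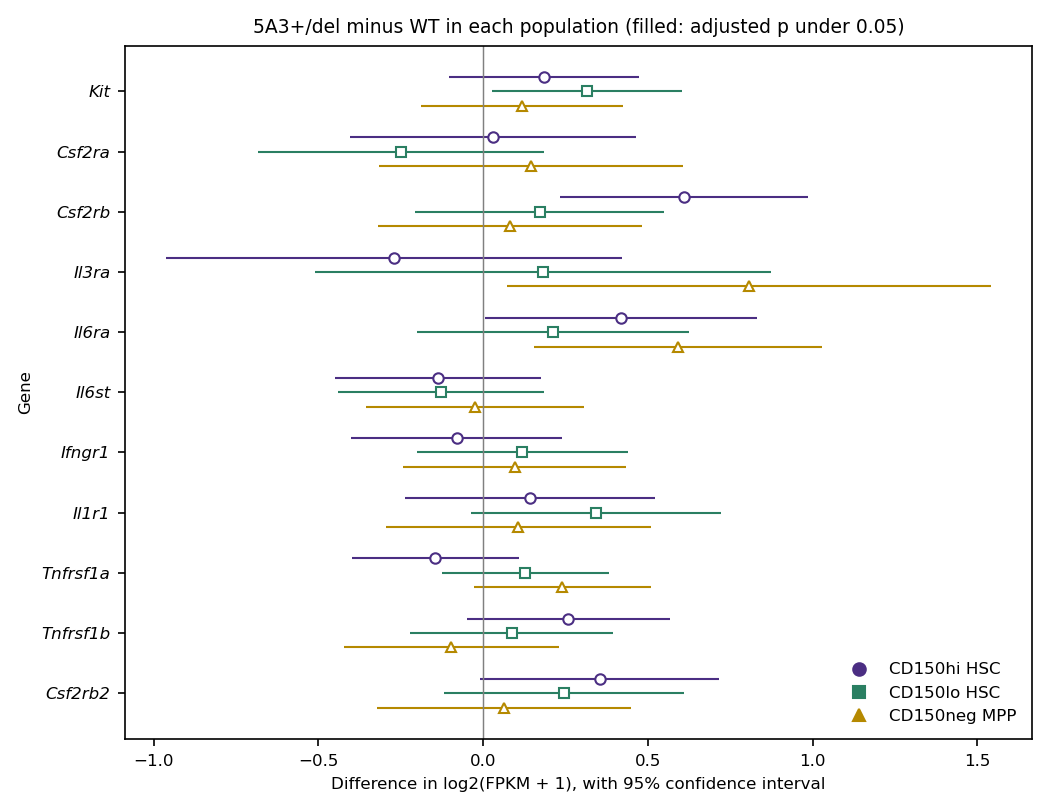
Difference of 5A3+/del minus WT in log2(FPKM + 1) (horizontal axis) for the 10 receptor genes and Csf2rb2 (vertical axis) in CD150hi HSC (circles), CD150lo HSC (squares) and CD150neg MPP (triangles). Symbols give the limma estimate and lines the 95% confidence interval, and open symbols mark an adjusted p of at least 0.05. All symbols are open, and the estimates of the 10 members lie between -0.27 and 0.81.

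Whether the genotype difference itself differed between populations was tested by interaction terms, and 0 of 10 members passed by limma. None of the 15409 genes passed either (0% called in each of the 3 interactions), of which 614 had an unadjusted p under 0.05 between CD150hi HSC and CD150lo HSC, 771 between CD150lo HSC and CD150neg MPP and 1227 between CD150hi HSC and CD150neg MPP. Among the members, Il3ra and Tnfrsf1a had an unadjusted p under 0.05 for CD150hi HSC against CD150neg MPP. Their interaction estimates were -1.08 (SE 0.49, adjusted p = 0.596 by limma) and -0.39 (SE 0.18, adjusted p = 0.598 by limma).

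Transcripts of the ligands in the table, apart from Tnf, stayed under 1 FPKM in every library of the sorted cells. Of the 9 ligand genes on the list, 8 were in the table and 1 passed the filter. Il3 was not in the table, so that its level is not known here. The highest value in any library was 0.709 FPKM for Kitl (stem cell factor), 0.153 for Csf2 (GM-CSF), 0.641 for Il6, 0.144 for Ifng, 0.451 for Il1a, 0.84 for Il1b and 0.532 for Lta. Tnf passed, with a median of 1.99 FPKM and a range from 0.108 to 9.51 FPKM, and was not called in any comparison.

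The 7 lists of partner genes, which include the ligands, hold 97 genes, of which 96 were in the table and 83 were tested. None of the 83 passed between genotypes in any population by limma, with 9, 9 and 1 at an unadjusted p under 0.05 in CD150hi HSC, CD150lo HSC and CD150neg MPP. Between CD150neg MPP and CD150hi HSC, 6 rose and 6 fell in WT, and 6 rose and 7 fell in 5A3+/del, where 10.0% and 6.16% of all tested genes were called in either direction. Most of these were other cytokine receptors, of which 5 of 14 tested rose and 2 fell in each genotype. Flt3, the FLT3 ligand receptor of early multipotent progenitors, was at 51.4 ± 8.60 FPKM in WT CD150neg MPP and 2.86 ± 0.78 in WT CD150hi HSC (SD, n = 5 each), a log2 difference of 3.74 (adjusted p = 1.96e-13 by limma). Il10ra, an IL-10 receptor chain, rose by 1.77 in WT and 1.16 in 5A3+/del. Tek, the angiopoietin receptor TIE2, differed by -1.58 in WT and -1.54 in 5A3+/del. Csf3r, the G-CSF receptor, rose by 0.57 in WT and 0.89 in 5A3+/del. The median of the other receptors was 0.34 in WT and 0.26 in 5A3+/del, beside 0.0070 and 0.0039 over all genes.

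Of the 6 partner and decoy receptors tested between CD150neg MPP and CD150hi HSC, 1 passed in WT and 2 in 5A3+/del, beside 10.0% and 6.16% of all genes. Il1rap, the accessory chain that IL-1 signalling through Il1r1 needs, had a median of 1.35 FPKM and was not called in any comparison, and Il1r2, the decoy receptor, had a median of 0.504 FPKM. Ifngr2, the second chain of the interferon-gamma receptor, had a median of 6.61 FPKM and was not called either. Il11ra1 fell from CD150hi HSC to CD150neg MPP by 0.98 (adjusted p = 3.15e-05 by limma) in WT and by 0.78 (adjusted p = 0.00138 by limma) in 5A3+/del, and Csf2rb2 fell in 5A3+/del as given above. Il11ra1 encodes the IL-11 receptor chain, which like Il6ra pairs with gp130.

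Among the downstream genes, none of 11 JAK and STAT genes and none of 18 adaptors of IL-1 and TNF receptors passed between CD150neg MPP and CD150hi HSC in either genotype by limma, beside 10.0% of all genes in WT and 6.16% in 5A3+/del. At an unadjusted p under 0.05 there were 3 and 3 of them in WT and 1 and 1 in 5A3+/del. Of 14 KIT signalling genes, Pik3cd fell by 0.53 in WT and Pik3r1 fell by 0.68 in 5A3+/del, both subunits of PI3 kinase. Of 19 feedback inhibitors, 1 rose and 2 fell in each genotype, read against the same shares of all genes. Irak3, an inhibitor of IL-1 and Toll-like receptor signalling, was at 13.1 ± 1.95 FPKM in WT CD150neg MPP and 28.4 ± 2.66 in WT CD150hi HSC (SD, n = 5 each), a log2 difference of -1.12 (adjusted p = 1.89e-06 by limma), and the 5A3+/del difference was -0.66 (adjusted p = 0.00401 by limma). Socs2, an inhibitor of JAK and STAT signalling, differed by -1.35 in WT and -1.24 in 5A3+/del. The genes that rose were Inpp5d, the phosphatase SHIP1, in WT by 0.54 and Sh2b3, the adaptor LNK, in 5A3+/del by 0.43.

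The 3 members whose levels varied most across the 6 groups by limma's F statistic were Il1r1 (84.5), Il6ra (13.3) and Csf2rb (8.18), and Il1r1 ranked 13 of the 15409 genes. Across the 29 normalized libraries, which share 10 mice and 3 populations, the genes with patterns most like Il1r1 by Pearson's r were Gm11428 (0.98), Tespa1 (0.97) and Emb (0.96). For Il6ra these were Sh3bgrl3 (0.85), Nlrp1a (0.83) and Gm10482 (0.82), and for Csf2rb they were Rtp4 (0.87), Pitpna (0.85) and Mgst1 (0.83). The order of these genes describes these libraries only.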

How the data were processed

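The authors sorted the cells, amplified 10 ng of total RNA, sequenced the libraries and deposited 1 table of FPKM values per gene and library. Per the labels, the submitters' processing notes name Bowtie 0.12.2, HTSeq and the mouse build mm9. The role of each tool is not given in the sources used here. Amplification and PCR without molecular identifiers can distort low values, so counting precision covers counting error only. Whole fragments were recovered from the FPKM steps and exon lengths for 98.3% to 98.76% of low values (under 50 fragments, tolerance 0.05), using lengths for 29279 of 30025 gene IDs (97.52%), which gave 21229494 to 38797567 fragments per library.

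From the deposited FPKM, log2(FPKM + 1) values were quantile normalized, a gene was tested where 4 or more libraries had an FPKM of 1 or above (15409 genes), and 6 group means were fitted to all 29 libraries with limma 3.58.1 in R 4.3.3, two-sided, with Benjamini-Hochberg adjustment over all tested genes and a threshold of 0.05. A fold change on this scale understates that of low genes. Summaries used Python 3.11.15 and pandas 2.3.3, and the scripts were tested on simulated data. Groups came from the labels, which name the CD150neg population CD150neg HSC. The name CD150neg MPP used here is that of the paper. The comparisons were genotypes within populations, populations within genotypes, and the differences between populations in the genotype effect. Names in the text are all 10 members, the ligands, Csf2rb2 and the 3 genes nearest in pattern to each of the 3 members with the largest F. From the 7 partner lists, genes called between CD150neg MPP and CD150hi HSC are named, up to 4 per list and genotype by p. Calls of partner genes between CD150lo HSC and CD150hi HSC are not given here. A called gene of the partner lists is counted but not reported by name here. The members and lists were chosen with earlier results of these data known.

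By the mouse code in the labels, the 3 populations came from the same mice. Deviations from group means correlated at -0.042 to 0.235 (median 0.079) in 28 pairs of libraries from the same mouse, and at -0.147 to 0.12 (median -0.025) in 112 pairs from different mice. Alternatives changed the pseudocount, filter, normalization, variance prior, samples in the fit, block, covariates and mice left out.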

Additional observations from a re-analysis of the deposited data

Results flagged for a closer look

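In 4 of 66 sets of libraries (11 genes, the 10 receptor genes and Csf2rb2, in 6 groups), the highest or lowest library stood apart from the others by Dixon's criterion, where chance alone gives about 3.3. Il6ra was at 10.6 FPKM in WT CD150lo HSC of mouse 2, with the others at 7.58 to 8.38 FPKM. Il6ra was at 19.1 FPKM in WT CD150neg MPP of the same mouse, with the others at 9.78 to 12.1 FPKM. Il1r1 was at 18.7 FPKM in 5A3+/del CD150lo HSC of mouse 2, with the others at 13.0 to 14.1 FPKM. Tnfrsf1b was at 17.1 FPKM in 5A3+/del CD150hi HSC of mouse 4, with the others at 21.9 to 23.8 FPKM.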

How the results depend on the processing

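Under 23 alternatives, 10 of which left out 1 mouse, none of 1821 recomputed receptor differences reversed a call, 5 lost one, 3 gained one, and 44 that were not called changed sign. The number of members called between WT CD150lo HSC and WT CD150hi HSC was 1 in place of 2 with only these groups in the fit, and 1 in the paired fit with the mouse as a replicate block, and it ranged from 1 to 2 when 1 mouse was left out (1 without WT mouse 2 and without WT mouse 5). The call that was lost was that of Csf2rb, and the cause was not tested. The mouse block also ended the WT call of Il6ra between CD150neg MPP and CD150hi HSC (limma adjusted p = 0.0644) and changed no other call of a member. As a random effect, the mouse ended no call. WT and 5A3+/del mice share only a number: their same-numbered libraries correlated at -0.034 to 0.081 over 14 pairs, and with that number as a replicate block 0 members were called between genotypes in each population.

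Counts over all genes moved more. Genes called between genotypes in CD150hi HSC were 24, but 0 with only these groups or the number block, 1 with the S100a8 and S100a9 covariate and 100 with a trend in the variance prior. Over all alternatives they ranged from 0 to 100, in CD150lo HSC from 0 to 74 (5 as reported) and in CD150neg MPP from 0 to 8 (7 as reported). Genes called between CD150neg MPP and CD150hi HSC were 680 in WT and 171 in 5A3+/del with the mouse block, in place of 1548 and 949, and between CD150lo HSC and CD150hi HSC 177 and 165, in place of 544 and 490. Between CD150neg MPP and CD150lo HSC they were 2 in WT (1 higher, 1 lower) and 0 in 5A3+/del without normalization, in place of 29 (5 higher, 24 lower) and 6. Leaving out 1 mouse moved the WT count to between 0 (without WT mouse 1, 2 or 4, or 5A3+/del mouse 3) and 69 (without WT mouse 5), and the 5A3+/del count to between 0 and 4. The stricter filter left 10080 genes and 9 members, without Il3ra. This gene had 25 to 435 fragments per library and, in the reported fit, the widest confidence intervals of the members. Whether the number of fragments accounts for that width was not tested.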
